A study of Bos taurus with 32 samples.

Results

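S100A8, S100A9 and S100A12, the calgranulins, and LTF, which encodes lactoferrin, were followed in the liver of Ayrshire dairy cows around calving. Members were taken as all probe sets annotated to 1 of these 4 genes, which gave 6 of the 24128 probe sets on the array. S100A8 and S100A12 had 1 probe set each, and S100A9 and LTF had 2 each, of which the one with the higher mean stands for the gene. None of the 6 was removed by a filter on level. Calgranulins are small calcium-binding proteins that neutrophils and monocytes carry in large amounts. S100A8 and S100A9 pair to form calprotectin, which withholds zinc and manganese from microbes, and S100A12 also binds zinc. Lactoferrin is an iron-binding protein of neutrophil secondary granules, milk and other secretions. All 4 are known as innate defence proteins, and their receptors include TLR4 and AGER for the calgranulins and LRP1 for lactoferrin.

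Energy feeding was either controlled (CON) or high (HIGH) over the last 6 weeks before predicted calving, and all cows then calved. Biopsies were taken at -8 d, counted from the predicted calving, and at 1 d and 9 d, counted from the actual one. There were 32 arrays of 12 cows, 6 per diet, where the design text speaks of 16 cows. The arrays numbered 5 in CON and 5 in HIGH at -8 d, 4 and 6 at 1 d, and 6 and 6 at 9 d, and 8 cows (3 CON, 5 HIGH) had arrays on all 3 days. Age, parity, health and feeding after calving are not given in the sources used here. There was no group without calving, so calving, stage of lactation and repeated biopsy cannot be told apart.

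Values are log2 intensities after robust multi-array averaging (RMA), so a difference of 1 is a doubling. A level of 1 probe set cannot be set against that of another. S100A8 (Entrez gene 616818) averaged 8.37 over all arrays, S100A12 (282467) 8.39, S100A9 (532569) 6.90 and LTF (280846) 6.33. The second S100A9 probe set (mean 5.70) followed the first over the 32 arrays, with r = 0.94. The second LTF probe set did not follow the first, with r = 0.0611. It was dim, with a mean of 3.16 and all arrays between 2.94 and 3.44. In the RefSeq gene table of assembly ARS-UCD2.0, S100A8, S100A12 and S100A9 are consecutive protein-coding genes in that order, and LTF lies on another chromosome.

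The liver identity of the biopsies and the quality of the arrays were checked first. All 12 measured hepatocyte markers had mean levels above the median of all values. Each array's median correlation with the other arrays was 0.986 to 0.991. The log2 difference between the 3' and 5' control probe sets of ef1a averaged -0.684 at -8 d, -1.07 at 1 d and -0.81 at 9 d. That of actin was 3.87 on the CON 9 d array of cow 528 and 1.1 to 2.2 on all others. The part of these differences in the results was not tested.

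All 4 genes were higher at 1 d than at -8 d. S100A12 rose 5.40-fold, S100A8 3.15-fold, LTF 2.91-fold and S100A9 1.74-fold, on the mean of both diets. By 9 d the 3 calgranulins had fallen again, while LTF did not pass the test for a fall. At 9 d against -8 d LTF passed limma's adjusted test and S100A12, with a change of like size, just missed it (adjusted p = 0.0250 and 0.0566), while both passed the exact test within cows. No member passed limma's adjusted test of diet on any day; LTF at -8 d had an unadjusted p of 0.0219.

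**Figure D1:**
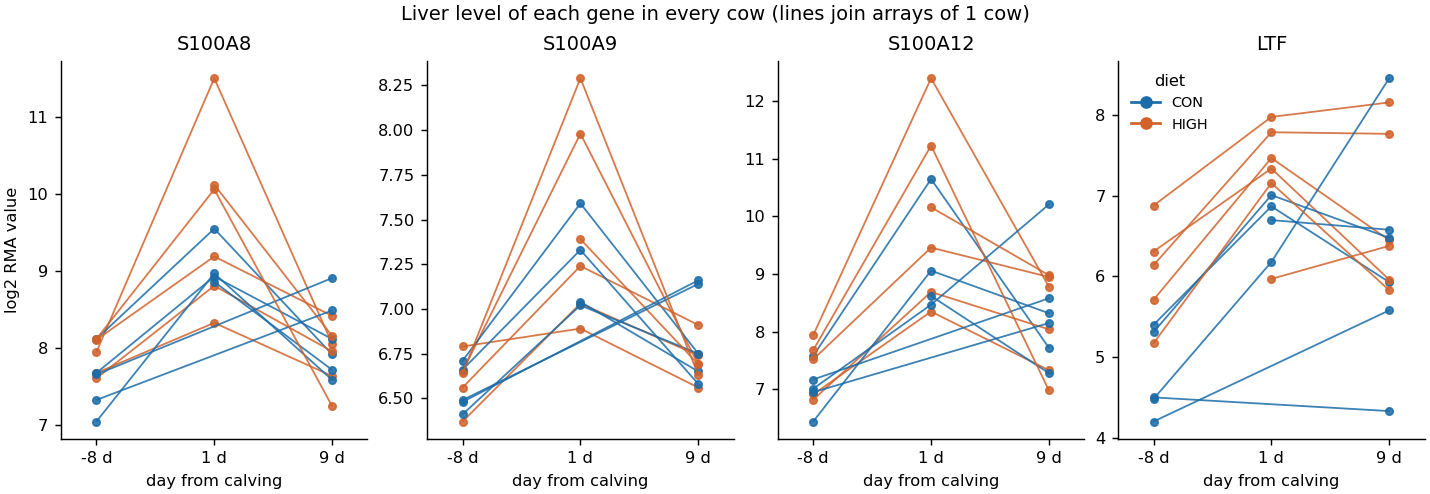
Level of each gene (log2 RMA value) by day from calving, with 1 point per array and lines joining the arrays of 1 cow, CON in blue and HIGH in orange. S100A8, S100A9 and S100A12 peak at 1 d, where all 10 arrays lie above the 10 arrays at -8 d; LTF rises in the 8 cows with both days and then stays high in some cows, up to 8.46 at 9 d.

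S100A12, which signals through AGER in addition to binding zinc, had the greatest fold of the 4 over calving. Its CON levels at -8 d were 7.58, 7.01, 6.44, 6.95 and 7.17, and its HIGH levels were 7.94, 6.91, 6.82, 7.52 and 7.68. At 1 d the CON levels were 10.65, 8.47, 9.06 and 8.62, and the HIGH levels ran from 8.35 through a median of 9.81 to 12.40. Every 1 d array thus lay above every -8 d array, with cow 432 (HIGH) at the top. The rise was 2.43 on the log2 scale (SE 0.39, 95% interval 1.64 to 3.23, limma adjusted p = 2.50e-05). It was 2.21 in CON (adjusted p = 0.0181) and 2.65 in HIGH (adjusted p = 0.000505).

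S100A8, the calprotectin subunit, followed the same order. Its CON levels at -8 d were 8.12, 7.68, 7.05, 7.33 and 7.66, and its HIGH levels were 7.95, 7.68, 7.61, 8.11 and 8.12. At 1 d the CON levels were 9.55, 8.93, 8.97 and 8.86, and the HIGH levels ran from 8.33 through a median of 9.62 to 11.5. The 2 days did not overlap, and the spread was wider at 1 d in HIGH (SD 1.14, n = 6) than in CON (SD 0.318, n = 4), a difference that was not tested. The rise was 1.66 (SE 0.24, interval 1.16 to 2.15, limma adjusted p = 7.18e-06). Without cow 432, which rose by 3.55, it was 1.47 (adjusted p = 7.34e-06).

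S100A9, the other calprotectin subunit, was measured by both of its probe sets. The first had CON levels at -8 d of 6.71, 6.41, 6.66, 6.48 and 6.49, and HIGH levels of 6.65, 6.79, 6.37, 6.56 and 6.64. At 1 d the CON levels were 7.59, 7.02, 7.33 and 7.04, and the HIGH levels ran from 6.89 through a median of 7.32 to 8.29. The days did not overlap, but the gap between the highest -8 d array (6.79) and the lowest 1 d array (6.89), both of cow 439, was narrow. The rise was 0.80 (SE 0.12, interval 0.55 to 1.04, limma adjusted p = 1.39e-05). The second probe set ran from 4.42 to 5.61 at -8 d and from 5.83 to 8.59 at 1 d, with no overlap. Its rise was 1.97 (SE 0.26, interval 1.44 to 2.50, limma adjusted p = 1.82e-06), a 3.92-fold change against 1.74-fold by the first, so the size of the S100A9 response depended on the probe set.

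LTF started from levels that differed more between cows. Its CON levels at -8 d were 5.40, 4.48, 5.31, 4.20 and 4.50, and its HIGH levels were 5.71, 6.14, 6.31, 6.88 and 5.17. At 1 d the CON levels were 6.87, 6.18, 7.01 and 6.70, and the HIGH levels ran from 5.97 through a median of 7.41 to 7.98. The days overlapped: 6 of the 10 arrays at 1 d lay above all arrays at -8 d, while within CON all 4 did. The rise was 1.54 (SE 0.34, interval 0.85 to 2.23, limma adjusted p = 0.00111). It was 1.80 in CON (adjusted p = 0.0276) and 1.28 in HIGH (adjusted p = 0.0471), and the HIGH call was lost in 29 of 44 refits that left out an array or a cow. The mean of both LTF probe sets rose by 0.74, since the second changed by -0.05 (adjusted p = 0.565).

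Read against the whole array, 5 of the 6 member probe sets rose at 1 d, where 23% of all 24016 tested probe sets were called and 11.5% rose. In CON 5 of 6 rose, against 3.33% of all probe sets, and in HIGH 5 of 6, against 8.7%. The CON calls were lost in 1 (S100A8, without cow 483), 4 (S100A9), 5 (S100A12) and 10 (LTF) of 44 refits. Levels at 1 d lay wholly above those at -8 d for 4 of the 6, against 0.745% of all probe sets. Within CON and within HIGH, 3.24% and 3.78% of all probe sets were so separated.

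Within cows, 5 of the 6 probe sets rose in all 8 cows with both days, as did 5.05% of all probe sets. Exact two-sided sign-flip tests gave p = 0.00781 for each of the 5, the smallest p that 8 cows allow. The spread of the rises between cows varied by gene and by probe set, which was not tested. S100A12 rose by 1.44 to 4.46 (SD 1.08, n = 8) and S100A8 by 0.65 to 3.55 (SD 0.886), with cow 432 highest and cow 439 lowest for both. S100A9 rose by 0.10 to 1.65 (SD 0.476) by its first probe set and by 1.00 to 3.57 (SD 1.00) by its second. LTF rose by 1.03 to 1.99 (SD 0.332) in all 8 cows.

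**Figure D2:**
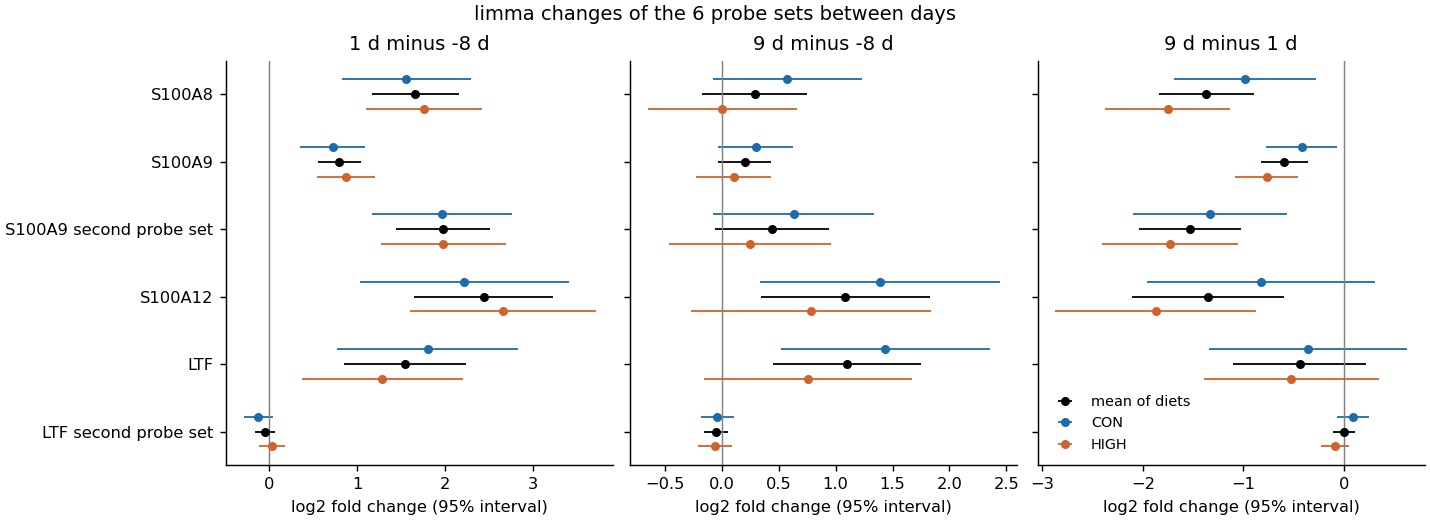
Change of each of the 6 probe sets between days on the log2 scale, as limma estimates with 95% intervals, for the mean of the diets (black), CON (blue) and HIGH (orange). At 1 d minus -8 d the intervals of 5 probe sets lie above 0; at 9 d minus 1 d those of the calgranulins lie below 0 on the mean of the diets, and that of LTF runs from -1.10 to 0.21.

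From 1 d to 9 d the calgranulins fell. S100A8 at 9 d ran from 7.59 through a median of 8.02 to 8.91 in CON and from 7.25 through 8.01 to 8.42 in HIGH. S100A9 ran from 6.58 through 6.75 to 7.16 in CON and from 6.56 through 6.69 to 6.91 in HIGH. S100A12 ran from 7.28 through 8.24 to 10.21 in CON and from 6.98 through 8.41 to 8.98 in HIGH. Each overlapped its 1 d levels, and the highest 9 d level of S100A8 was on the array of cow 528 with the high actin difference. The highest 9 d level of S100A12 was in cow 477.

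S100A8 changed by -1.37 (SE 0.23, limma adjusted p = 9.61e-05) and S100A9 by -0.59 (SE 0.12, adjusted p = 0.000561). The second S100A9 probe set changed by -1.53 (SE 0.25, adjusted p = 6.40e-05) and S100A12 by -1.35 (SE 0.37, adjusted p = 0.0126). These 4 of the 6 member probe sets fell, where 13.1% of all probe sets were called and 6.99% fell. S100A8 and both S100A9 probe sets were lower at 9 d in all 10 cows with both days (exact p = 0.00195, the smallest that 10 cows allow), as were 2.49% of all probe sets. S100A12 was lower in 9 of 10 (exact p = 0.0273); cow 477 rose by 1.74. The call on S100A12 was lost without cow 445 (-1.04, adjusted p = 0.0796) and without cow 529 (-1.11, adjusted p = 0.0523). This comparison shares its 1 d arrays with the comparison over calving.

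In HIGH, S100A8, both S100A9 probe sets and S100A12 fell, against 4.71% of all probe sets. The S100A12 call in HIGH was lost without cow 529 (-1.40, adjusted p = 0.121). In CON the second S100A9 probe set fell (-1.33, adjusted p = 0.0461), against 1.37% of all probe sets, and S100A8 (-0.98, adjusted p = 0.128), S100A9 (-0.42, adjusted p = 0.220) and S100A12 (-0.83, adjusted p = 0.526) did not pass. The test of this difference between the diets gave adjusted p of 0.801 to 0.981 for the 6 probe sets, so the fall was not shown to differ between the diets.

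LTF behaved otherwise from 1 d to 9 d. Its 9 d levels ran from 4.33 through a median of 6.21 to 8.46 in CON and from 5.83 through 6.42 to 8.16 in HIGH. The lowest was cow 528 and the highest cow 477, both CON, and the 9 d levels overlapped those of 1 d on both sides. LTF changed by -0.44 (SE 0.32, interval -1.10 to 0.21, limma adjusted p = 0.416). It was lower at 9 d in 7 of 10 cows and higher in 3, by 2.28 in cow 477, 0.41 in cow 512 and 0.18 in cow 462 (exact p = 0.492). Without cow 477 the change was -0.75 (adjusted p = 0.0970).

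The difference between LTF and each calgranulin probe set was then tested within cows, as 12 comparisons chosen after the values were seen, with p adjusted over the 12. From 1 d to 9 d the LTF change exceeded the S100A8 change by 1.30 (SD 1.06, 9 of 10 cows, exact p = 0.00391, adjusted p = 0.0234). It exceeded the S100A12 change by 1.20 (SD 1.11, 9 of 10 cows, exact p = 0.00977, adjusted p = 0.0293). Against S100A9 the result depended on the probe set, with 0.438 by the first (8 of 10 cows, exact p = 0.178, adjusted p = 0.213) and 1.43 by the second (9 of 10 cows, exact p = 0.00391, adjusted p = 0.0234).

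Over the other intervals LTF did not stand apart in the same way. From -8 d to 1 d LTF rose more than the first S100A9 probe set by 0.728 in 8 of 8 cows (exact p = 0.00781, adjusted p = 0.0293). By the second S100A9 probe set the sign turned, to -0.486, with LTF lower in 5 of 8 cows (exact p = 0.141, adjusted p = 0.188). LTF differed from S100A8 by -0.0775 (exact p = 0.812) and from S100A12 by -1.001 (exact p = 0.0312), which did not pass after adjustment (0.886 and 0.075). From -8 d to 9 d none of the 4 passed: LTF differed from S100A12 by -0.019 (5 cows each way, exact p = 0.959), from S100A8 by 0.78 (adjusted exact p = 0.151), and from S100A9 by 0.87 and 0.637 by its probe sets (adjusted exact p = 0.0977 and 0.188). Such differences compare changes on the log2 scale of different probe sets, whose response to the same change in RNA can differ.

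At 9 d against -8 d LTF was higher by 1.10 (SE 0.32, interval 0.45 to 1.75, limma adjusted p = 0.0250), 2.14-fold. It was the 1 member of 6 called, where 9.44% of all probe sets were called and 5.18% rose. LTF was higher in 8 of 10 cows (exact p = 0.00781); cows 460 and 528 were lower by 0.35 and 0.17. The call rested on few cows: without cow 477, which rose by 3.98, the difference was 0.83 (adjusted p = 0.0732). It was also lost without cow 432 (1.09, adjusted p = 0.0508) or cow 439 (1.01, adjusted p = 0.0664), and without 1 array of cow 477, 527 or 529 at -8 d or of cow 439 or 462 at 9 d (0.97 to 1.04, adjusted p = 0.0508 to 0.0547), 8 of 44 refits in all. S100A12 was higher by 1.08 (SE 0.36, interval 0.34 to 1.83), 2.12-fold, and just missed the threshold (limma adjusted p = 0.0566), although it was higher in 9 of 10 cows (exact p = 0.00977).

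S100A8 and S100A9 were not called at 9 d against -8 d, which does not show a full return. S100A8 differed by 0.29 (interval -0.17 to 0.75, limma adjusted p = 0.495), and S100A9 by 0.20 (interval -0.03 to 0.43, adjusted p = 0.311). Cows 527 and 528, CON cows without a 1 d array, had the highest 9 d levels of S100A8 (8.49 and 8.91) and S100A9 (7.16 and 7.14). No member was called within CON or within HIGH, where 1.84% and 3.56% of all probe sets were.

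Diet was compared on each day. At -8 d LTF averaged 6.04 ± 0.643 (SD, n = 5) in HIGH and 4.78 ± 0.541 (SD, n = 5) in CON. The highest CON cow (445, 5.40) lay above the lowest HIGH cow (529, 5.17), and the other 4 HIGH cows lay above all CON cows. The fitted difference was 1.21 (SE 0.50, interval 0.19 to 2.23), with an unadjusted p of 0.0219 and an exact permutation p of 0.0238. It did not pass limma's adjustment over all probe sets (adjusted p = 0.99958), and no probe set of the array did (0%).

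In all, limma called 0 of the 6 member probe sets for diet on any day, and 0 of 24016 probe sets at -8 d (0%), 1 at 1 d (0.00416%) and 0 at 9 d (0%). At an unadjusted p under 0.05, 1 member passed at -8 d (LTF) and 0 at 1 d and 9 d, by limma and by exact permutation alike. Among all probe sets, 4.27%, 8.38% and 3.39% did so. The intervals were wide: at 1 d HIGH minus CON was 0.84 for S100A12 (interval -0.35 to 2.04), 0.56 for S100A8 (-0.19 to 1.30), 0.21 for S100A9 (-0.17 to 0.58) and 0.70 for LTF (-0.35 to 1.74). At 9 d it was -0.20 for S100A12 (-1.28 to 0.88), -0.21 for S100A8 (-0.88 to 0.46), -0.14 for S100A9 (-0.47 to 0.20) and 0.53 for LTF (-0.41 to 1.47). Of the 6 members, 0 were called for diet by time in any of the 3 intervals, as were 0 of all probe sets (0%). At an unadjusted limma p under 0.05, 0 members passed. The shares of all probe sets that did were 7.17% for 1 d minus -8 d, 3.29% for 9 d minus -8 d and 6.78% for 9 d minus 1 d.

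Ordered by mean level, the 6 groups ran alike for S100A8, S100A9 and S100A12 at the top, with HIGH 1 d first and CON 1 d second, and CON -8 d was lowest for all 4 genes. For LTF the order was HIGH 1 d (7.29), HIGH 9 d (6.76), CON 1 d (6.69), CON 9 d (6.23), HIGH -8 d (6.04) and CON -8 d (4.78). Each group's range overlapped that of its neighbour in this order, for each of the 4 genes.

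The genes were next compared with each other across cows, over 24 relations. At 1 d the levels of the calgranulins went together across the 10 cows. S100A8 and S100A12 had Pearson's r = 0.946 (permutation p = 0.00021, adjusted p = 0.00252) and Spearman's rho = 0.915 (permutation p = 0.00047), and r = 0.948 without the 2 cows farthest from the median. S100A9 and S100A12 had r = 0.915 (adjusted permutation p = 0.00424) and rho = 0.964, and S100A8 and S100A9 r = 0.806 (adjusted permutation p = 0.0226) and rho = 0.891. The rises of S100A8 and S100A12 from -8 d to 1 d also went together over 8 cows, with r = 0.898 (exact permutation p = 0.00231, adjusted p = 0.0111) and rho = 0.881. So did those of S100A9 and S100A12, with r = 0.847 (adjusted exact permutation p = 0.0226) and rho = 0.952. Without the 2 farthest cows these were 0.765 and 0.708.

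On the other days the relations that passed were fewer, 1 on each, and differences between days were not tested. At -8 d S100A8 and S100A12 had r = 0.880 (adjusted permutation p = 0.00498), while the first S100A9 probe set had r = 0.222 with S100A8 and 0.250 with S100A12. That probe set, used in all these relations, varied little at -8 d (SD 0.136, against 0.368 for the second). Relations of the second S100A9 probe set were not tested, so the low r may not hold for the gene. At 9 d S100A8 and S100A9 had r = 0.872 (adjusted permutation p = 0.00096), while S100A12 had r = 0.559 with S100A8 and 0.268 with S100A9. Of the 24 relations 7 passed after adjustment, and none of the 12 with LTF did. At 1 d LTF had r = -0.0733 with S100A8, 0.0542 with S100A9 and 0.0748 with S100A12 (adjusted permutation p = 0.883, 0.885 and 0.883).

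The order of cows in LTF was largely kept over calving. Its levels at -8 d and 1 d had r = 0.912 over 8 cows (exact permutation p = 0.00253, adjusted over 12 such relations p = 0.0304) and rho = 0.833. The r was 0.838 with the diet means taken off and 0.714 without the 2 farthest cows. For S100A12 the same relation was of like size but just missed the threshold, with r = 0.842 (adjusted exact permutation p = 0.0539). Its r was 0.838 with the diet means taken off and 0.910 without the 2 farthest cows. A difference between LTF and S100A12 in this was not tested. The other 10 relations between days, LTF at 1 d against 9 d among them (r = 0.132), did not pass either.

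**Figure D3:**
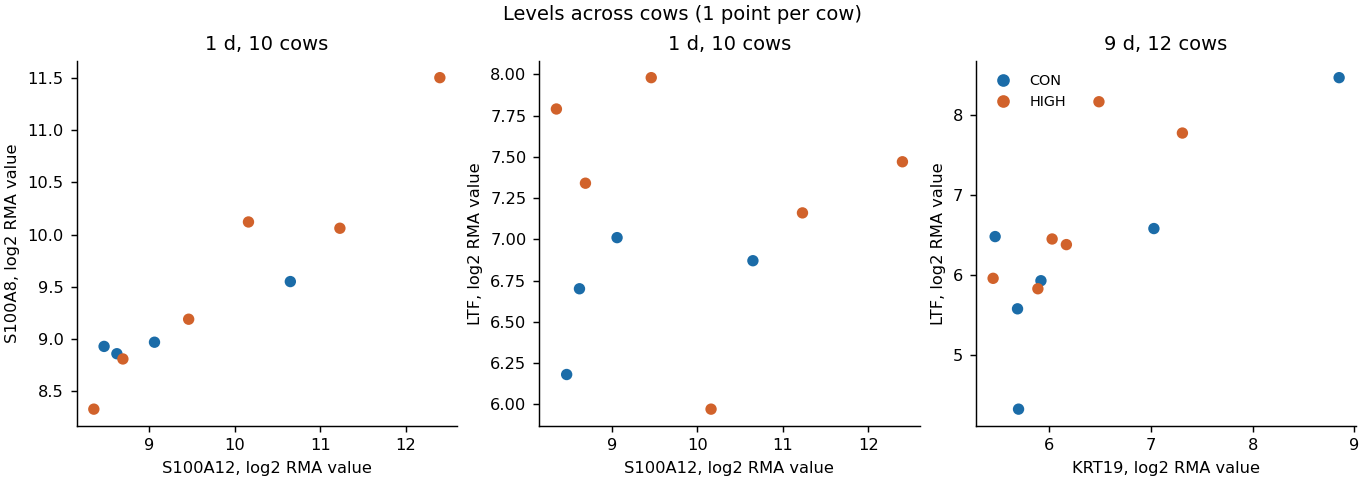
Levels (log2 RMA value) with 1 point per cow, CON in blue and HIGH in orange: S100A8 against S100A12 at 1 d, LTF against S100A12 at 1 d, and LTF against KRT19 at 9 d. The first pair lies along 1 line (r = 0.946), the second shows no order (r = 0.0748), and in the third cow 477 stands at the upper right with KRT19 at 8.85.

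Genes whose levels were most like each member were listed over the 32 arrays, which share cows and days, among 9151 genes with the members themselves left out. S100A8 was closer to S100A9 (r = 0.904) and S100A12 (0.900) than to any of these. The next most alike for S100A8 was A2M (r = 0.814), a protease inhibitor, followed by CTSC (0.805), the protease that activates neutrophil serine proteases. For S100A9 they were SERPINA14 (0.774) and GPX3 (0.770), for S100A12 ME2 (0.782) and CDH17 (0.776), and for LTF PGAP6 (0.737) and DLGAP4 (0.710). With group means taken off, other genes led. For S100A8 they were TAP1 (0.714), GRK2 (0.712), ARHGAP27 (0.650), CSK (0.644) and MARK4 (0.635). For S100A9 they were RASSF3 (0.699), SRP68 (0.664), RBM28 (0.658), AP4S1 (0.644) and BRPF1 (0.644). For S100A12 they were IFI35 (0.690), GLIPR2 (0.680), CTSC (0.669), ANXA8L1 (0.667) and FGR (0.651). For LTF they were SLC28A3 (0.773), SLC6A14 (0.710), ESRP1 (0.689), SPINT2 (0.682) and KRT19 (0.681). ESRP1, SPINT2 and KRT19 are known from epithelial cells, and KRT19 marks bile duct cells in liver. With group means off, LTF had r = -0.166 with S100A8, whereas S100A8 and S100A12 had r = 0.817.

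KRT19 was picked from this ranking, so its relation to LTF on the same arrays is given with no test. At 9 d LTF and KRT19 had r = 0.758 over 12 cows, and r = 0.521 without cows 439 and 477. KRT19 was 8.85 in cow 477 at 9 d, the cow with the highest LTF. Among 16 relations of KRT19 with the members, chosen after seeing the data, 1 with a calgranulin had an adjusted p under 0.05. The 16 include the relations with LTF, for which KRT19 was picked. These entered the adjustment and lowered the adjusted p below, so it is not counted as a pass. The changes of S100A9 and KRT19 from -8 d to 1 d had r = 0.860 over 8 cows (exact permutation p = 0.00407, adjusted over the 16 p = 0.0325). The rho was 0.690 (adjusted exact permutation p = 0.139), and r was 0.658 without the 2 farthest cows. KRT19 itself averaged 6.24 at -8 d, 5.77 at 1 d and 6.33 at 9 d, and its part in the LTF levels was not tested.

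Markers of the cells that carry these proteins were then examined. In a bulk biopsy, fewer cells of a type and less RNA per cell cannot be told apart. Of 23 neutrophil markers 15 were measured, 10 of them with a mean below the median of all values. At 1 d against -8 d NCF4, a subunit of the neutrophil oxidase, rose by 0.27, and ITGAM, an integrin of myeloid cells, fell by 0.23. The other 13 were not called, and the median change was 0.0364. Of all 9155 genes, 16.5% rose and 12.3% fell. The uncalled markers with a mean above the median of all values changed by 0.0763 (NCF1), 0.101 (CYBB), -0.0894 (FCGR3A) and -0.00646 (ITGB2). Among those below it, the granule enzymes MPO (5.13 to 5.17) and ELANE (3.63 to 3.69) stayed at low levels on both days. Whether the RNA of MPO and ELANE follows the number of neutrophils was not tested. The summed linear level of the list was 934 to 1322 at -8 d, 927 to 1304 at 1 d and 894 to 1326 at 9 d, rising in 4 cows and falling in 4 over calving (exact p = 1). The brightest markers weigh most in this sum, among them ITGB2 (mean 8.235), FCGR3A (7.41) and CYBB (7.33). Whether the sum follows the number of neutrophils in the biopsy was not tested. In none of 16 relations did a member pass against this sum, the highest r being 0.847 for the changes of S100A8 (exact permutation p = 0.0146, adjusted p = 0.0955, r = 0.595 without 2 cows).

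Of 13 measured monocyte and macrophage markers, FCN1 (0.58) and VSIG4 (0.39) rose and CD14 (-0.38) fell at 1 d, and FCN1 fell again by 9 d (-0.39, limma adjusted p = 0.0174). Their sum was 21791 to 29097 at -8 d and 18506 to 28609 at 1 d, rising in 2 of 8 cows (exact sign-flip p = 0.242). The brightest markers weigh most in this sum too, among them CD5L (mean 13.27), C1QA (12.12) and CD14 (11.69), against 5.66 for FCN1. Whether it follows the number of these cells was not tested. Of 11 T and NK cell markers 0 rose and 6 fell, where 16.5% of all genes rose and 12.3% fell. Epithelial markers had 1 riser (KRT18) and 1 faller (TFF3) of 7, with sums of 2524 to 4150 at -8 d and 3119 to 6161 at 1 d. Endothelial markers had 1 faller (EMCN) of 8, B and plasma cell markers 0 calls of 4, and erythroid markers 0 of 6. Hepatocyte markers had 4 risers and 6 fallers of 12. Their sum fell over calving in 8 of 8 cows, by a mean log2 change of -0.0588 (exact sign-flip p = 0.00781, adjusted p = 0.0703). The part of these markers in the members' changes was not tested.

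**Figure D4:**
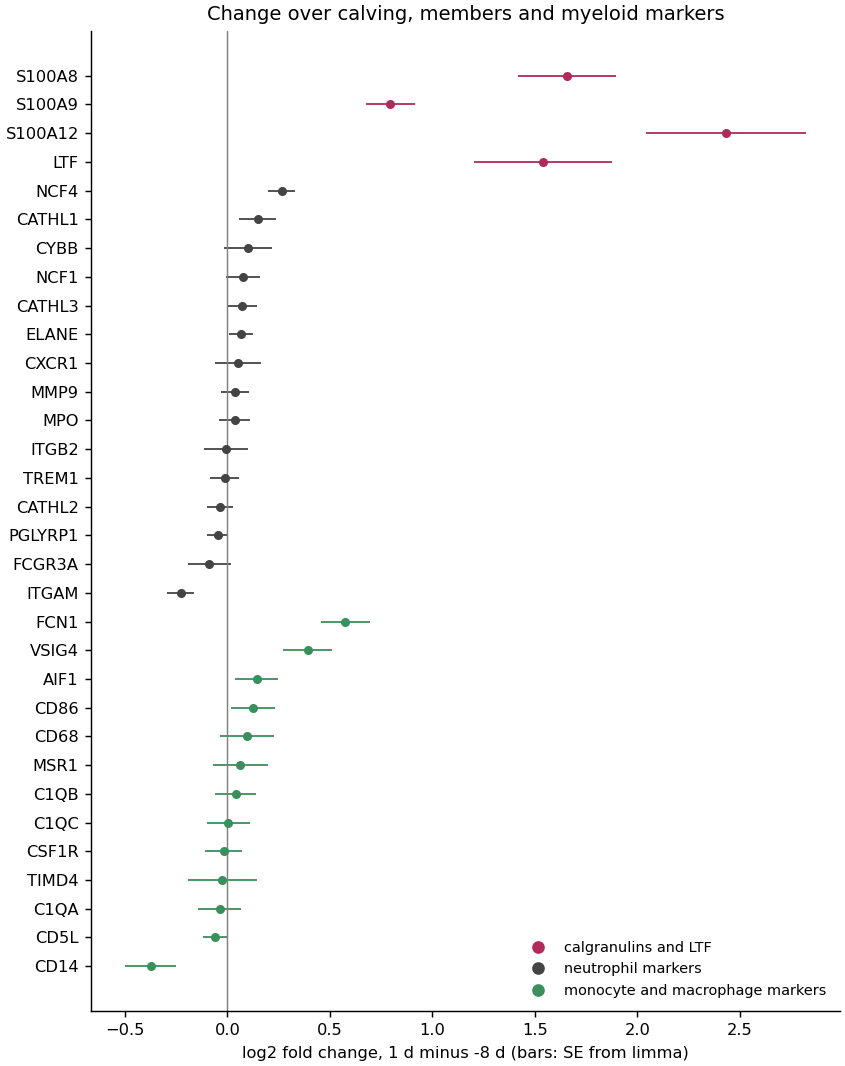
Change from -8 d to 1 d on the log2 scale (limma estimate, bars are SE) for the 4 genes, 15 neutrophil markers and 13 monocyte and macrophage markers. The 4 genes lie between 0.80 and 2.43, and the markers between -0.38 (CD14) and 0.58 (FCN1).

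Pathway genes around the members were counted at 1 d against -8 d, with members left out of the lists and some genes on more than 1 list. Over all 9155 genes 16.5% rose and 12.3% fell, with a median change of 0.000355. Of 11 other S100 genes 3 rose and 0 fell: S100A2 by 1.01 (SE 0.19), S100A13 by 0.39 and S100A4 by 0.24, with a list median of 0.24. Of 9 calgranulin receptor and signalling genes, IRAK4, a kinase below TLR4, rose by 0.18 and CD14, a TLR4 partner, fell. Of 5 lactoferrin receptor and partner genes, TFRC, the transferrin receptor, rose by 0.77, ASGR2 rose by 0.26 and CD14 fell.

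Among 19 cytokine and transcription factor genes of acute inflammation, 3 rose and 3 fell, with a median of 0.0872. CEBPB (0.44), NFKBIZ (0.57) and STAT3 (0.29) rose, and CEBPD (-0.33), the NF-kappa-B inhibitor NFKBIA (-0.67) and IL6R (-0.27) fell. Of 19 other neutrophil granule genes 2 rose, HP (4.84) and ARG1 (0.66), and CATHL5 (-0.19) fell. HP, haptoglobin, and ARG1, a urea cycle enzyme, are also made by hepatocytes.

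The metals that the members bind had genes moving on the same day. Of 12 iron genes 6 rose and 4 fell, with a median of 0.211: SLC11A1, a phagosomal metal transporter, rose by 0.71, and TF, transferrin, fell by 0.10. Of 8 zinc and manganese genes 4 rose and 2 fell, with a median of 0.225. The metallothioneins MT1A (3.38, SE 0.44) and MT2A (1.84, SE 0.29) rose, and the zinc importers SLC39A14 and SLC39A8 went opposite ways (0.34 and -0.42). Of 21 acute phase genes 12 rose and 2 fell, with a median of 0.233, among the risers SAA3 (2.64), LBP (1.83) and ITIH4 (1.53). By 9 d against 1 d, 10 of the 21 acute phase genes and 6 of the 12 iron genes fell, where 10% of all genes did.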

How the data were processed

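Per the labels, liver RNA of 32 biopsies was hybridised to Affymetrix bovine arrays. The deposited table holds log2 intensities; per the submitters' processing notes, the authors used RMA in Affymetrix Expression Console 1.1. RMA makes the distributions of the arrays alike (array medians 5.86 to 5.93), so a change is measured against the array as a whole. Of 24128 probe sets, 112 controls were left out. Probe sets were tied to genes by GEO's platform annotation, with the brightest probe set per gene. Gene symbols came from the RefSeq gene table, or from the platform annotation where that table lacked the gene. limma 3.58.1 (R 4.3.3) fitted a mean per group (6) and treated arrays of 1 cow as correlated, at a consensus of 0.138 (cow numbers in the labels pair the arrays, the titles' replicate numbers do not), with two-sided tests and Benjamini-Hochberg adjustment over 24016 probe sets per contrast, called at 0.05. Single values were also tested by exact sign flips within cows (18 tests, unadjusted in the text) or exact permutation of cows between diets (18). Named genes were the members, called genes of the fixed lists, some uncalled cell markers and up to 5 genes most like each member. The script was tested on simulated data. The members and lists were chosen with earlier results of these data known. Alternatives were the block, eBayes settings, array weights, a filter on dim probe sets, centring, probe set means, the 8 complete cows, and leaving out each array or cow. The number of arrays limits the precision.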

Additional observations from a re-analysis of the deposited data

Results flagged for a closer look

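Of 54 groups of levels or within-cow changes, 5 held a value far from the others; chance alone gives about 5% of groups such a value. S100A8 in cow 445 (CON, 1 d) was 9.55, where the other 3 CON cows were 8.86 to 8.97. The rise of S100A8 over calving in cow 432 was 3.55, where the other 7 cows rose by 0.65 to 1.94. LTF in cow 477 (CON) changed by 3.98 from -8 d to 9 d, where the other cows changed by -0.35 to 1.63. From 1 d to 9 d LTF in the same cow changed by 2.28, where the others changed by -1.38 to 0.41. The dim second LTF probe set changed by 0.38 over calving in cow 529, where the others changed by -0.21 to 0.02.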

How the results depend on the processing

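The calls at 1 d against -8 d on the mean of the diets held for all 4 genes in the 10 alternatives and the 44 refits that left out 1 array or cow. LTF at 9 d against -8 d was 1.08 with no replicate block (adjusted p = 0.0538), and 0.83 to 1.29 over the refits. S100A12 at 9 d against -8 d passed with cow as a fixed block (1.12, adjusted p = 0.0453), with array weights (1.04) and the dim filter (1.09). It also passed with probe set means (1.09, though it has 1 probe set) and in the exact test within cows (1.10). It did not pass in every alternative, with adjusted p up to 0.181. The refits gave 0.89 to 1.24 (adjusted p = 0.0309 to 0.138), and 9 of the 44 passed. S100A12 at 9 d against 1 d missed the threshold with only the 8 complete cows (-1.33, adjusted p = 0.0964), and was -1.67 to -1.04 over the refits.

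Signs turned only for values that had not passed. With cow as a fixed block these were the second LTF probe set at 9 d against 1 d (0.0106), S100A8 at 9 d against -8 d in HIGH (-0.0487), and diet by time at 1 d for LTF (0.0263) and S100A8 (-0.0262). S100A8 at 9 d against -8 d in HIGH was also -0.00617 with array weights, -0.00362 with the dim filter and -0.028 with the complete cows. With the complete cows the second LTF probe set at 9 d against 1 d was 0.00967, LTF at 9 d against 1 d in CON 0.27, diet at 9 d 0.0127 for S100A9 and -0.123 for LTF, and diet by time at 9 d against -8 d 0.004 for S100A9. The exact test gave the second LTF probe set 0.00125 at 1 d against -8 d and 0.005 at 9 d against 1 d. Over the refits the second LTF probe set at 9 d against 1 d ran from -0.0207 to 0.0218, S100A8 at 9 d against -8 d in HIGH from -0.11 to 0.19, diet at 9 d for S100A12 from -0.42 to 0.18 and diet at -8 d for S100A9 from -0.00987 to 0.115. Diet by time ran from -0.49 to 0.44 for LTF at 9 d against 1 d, and at 1 d against -8 d from -0.0158 to 0.936 for S100A12, -0.17 to 0.46 for S100A8 and -0.0192 to 0.318 for S100A9. The cause of these shifts was not tested. Within a single diet, 8 calls were lost over the alternatives, 4 of them the CON rises with only the 3 complete CON cows. The groups of 4 to 6 arrays left intervals that include sizable effects of diet.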
